A study of Bos indicus x Bos taurus with 20 samples.

Results

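The trophectoderm (TE) and the inner cell mass (ICM) of bovine blastocysts that had received vehicle as zygotes were compared by RNA-seq. These vehicle-injected embryos, called Control, are wild type by their labels and come from Bos indicus x Bos taurus. The comparison took its members from the sample titles, as the 3 Control TE and the 3 Control ICM libraries, which are 6 of the 20 libraries of the study. All 6 groups of the other libraries hold 2-cell or 8-cell embryos, or the ICM and TE of blastocysts whose zygotes were injected with METTL7A mRNA. The 3 ICM and 3 TE libraries of the METTL7A-injected embryos, also labelled wild type, share the count table with Control. They are not averaged into the Control levels, but they share the gene filter, the scaling and the estimate of the spread with the Control test. The labels do not say how the cells were parted, how many embryos made up a library, or how old the blastocysts were.

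The blastocyst forms when outer cells become an epithelium, the TE, which pumps fluid into a cavity and later builds the fetal part of the placenta. In cattle the TE also secretes interferon tau, the signal by which the conceptus announces itself to the mother. The ICM sits inside the cavity and segregates into epiblast, the source of the body, and hypoblast, the source of the yolk sac lining. A TE sample with some ICM cells, or an ICM sample with some TE cells, would lie between the pure populations, and in bulk RNA fewer cells of a type and less RNA per cell cannot be told apart.

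The table names genes by Ensembl cattle identifiers alone. Of its 27607 identifiers 0 matched the RefSeq gene table at hand, so the markers that define TE, such as CDX2 and GATA3, and those that define epiblast and hypoblast, such as NANOG, SOX2 and GATA6, were not analysed here. The labels ICM and TE were therefore not checked against markers, and neither were signs of cumulus or other somatic cells. The results below concern how many genes differed, by how much, in which direction and in which libraries. Of the identifiers, 4 are printed with their values.

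The Control ICM libraries held 7261807, 10949132 and 11200395 gene counts and the Control TE libraries 12864399, 12792589 and 11211788. Control ICM replicate 1 was thus the shallowest of the 6, and it stood apart from all others before any test. Levels are given in CPM, the count of a gene relative to the library size, scaled by the TMM method, which sets the bulk of genes equal between libraries. In log2 CPM the first principal component of the 6 libraries held 56.6% of the variance, with ICM replicate 1 at 99.2 and the others between -38.4 and -1.4. The 3 TE libraries lay from -38.4 to -25.7 on this axis and ICM replicates 2 and 3 at -1.4 and -4.1, so the lineages did not overlap on it. Without ICM replicate 1 the first component held 36.7% of the variance, with ICM at 47.2 and 12 and TE at -34.6, -17.5 and -7.1.

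**Figure D1:**
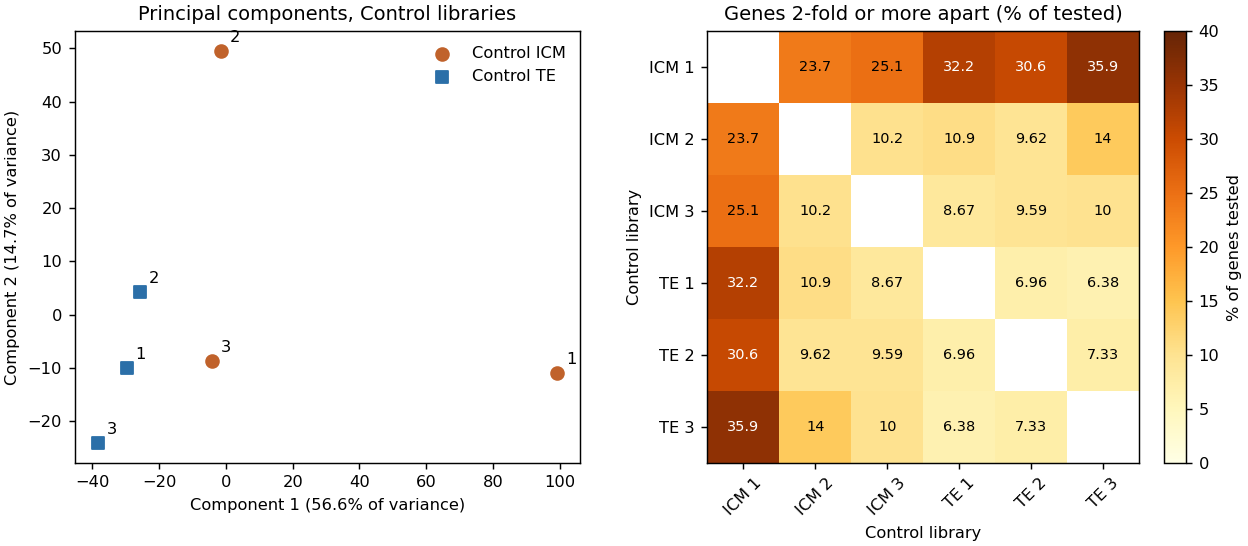
Left, the 6 Control libraries on the first and second principal components of log2 CPM, with orange circles for ICM, blue squares for TE and the replicate number beside each point. Right, the percent of the 14128 genes tested that lay 2-fold or more apart between each pair of Control libraries. ICM replicate 1 stands alone on the left and in the darkest row and column on the right, where its pairs range from 23.7% to 35.9% of genes.

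Apart from ICM replicate 1, libraries of different lineages were about as far apart as the ICM libraries were from each other, and farther than the TE libraries. Any 2 TE libraries were 2-fold or more apart in 6.38% to 7.33% of the 14128 genes tested, and ICM replicates 2 and 3 in 10.2%. Between ICM replicates 2 and 3 on the one hand and the TE libraries on the other, 8.67% to 14% of genes were that far apart. ICM replicate 1 was 2-fold or more away from the other ICM libraries in 23.7% and 25.1% of genes and from the TE libraries in 30.6% to 35.9%. Pearson correlations of log2 CPM across genes, given as a description, ran from 0.977 to 0.981 within TE and from 0.965 to 0.975 between TE and ICM replicates 2 and 3, and reached 0.972 between ICM replicates 2 and 3. The libraries share their depth range and their amplification protocol, and genes are not independent replicates.

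The spread between replicates was larger in ICM than in TE, and 1 library widened this gap. The median SD of log2 CPM over genes was 0.398 among the 3 ICM libraries and 0.234 among the 3 TE libraries, and 73.5% of genes had the larger SD in ICM. Between ICM replicates 2 and 3 alone the median SD was 0.242, and 51.2% of genes exceeded the TE value. An SD from 2 libraries tends to fall below an SD from 3, so these values are not like for like. By pairs, ICM replicates 2 and 3 were still farther apart than any 2 TE libraries, at 10.2% of genes against 6.38% to 7.33%. ICM replicate 1 was the highest of the 6 Control libraries in 4360 genes and the lowest in 4944, together 65.9% of those tested. The corresponding share was 21.3% and 25.8% for the other ICM libraries and 23.2% to 38% for the TE libraries.

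More genes had at least 1 count in TE than in ICM libraries. With each library thinned to the 7261807 counts of the shallowest, 15817, 16713 and 16947 genes had a count or more in the ICM libraries and 17024, 17232 and 17609 in the TE libraries. The groups did not overlap, with means of 16492.3 ± 596.4 (SD, n = 3) in ICM and 17288.3 ± 296.5 (SD, n = 3) in TE. The exact 2-sided permutation test gave p = 0.1, the smallest value that 3 against 3 libraries allow. The difference of 796 genes was 458.3 without ICM replicate 1. With 5 counts as the minimum the thinned groups overlapped, at 12593, 13104 and 13300 genes in ICM and 13253, 13477 and 13746 in TE (exact 2-sided permutation p = 0.2). In METTL7A-injected embryos, thinned genes with at least 1 count averaged 18523 ± 279.5 in ICM and 18902.3 ± 515.3 in TE (SD, n = 3 each). These groups overlapped, at 18201, 18703 and 18665 genes in ICM and 19044, 19332 and 18331 in TE.

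In Control the share of counts in the 100 most abundant transcripts overlapped between the lineages, whereas that in the 1000 most abundant narrowly did not. The 100 genes with most counts in a library held 28.6%, 29.6% and 33.2% of its counts in ICM and 32.9%, 29.6% and 33.7% in TE, groups that overlap (exact 2-sided permutation p = 0.5). For the library at 28.6% the exact 95% binomial interval was 28.61 to 28.68, so counting error is far below the spread between libraries. The 1000 genes with most counts held 68.3%, 67.3% and 67.2% in ICM and 67.1%, 65.6% and 66.5% in TE. The exact 2-sided permutation test gave p = 0.1 there, the smallest value possible, but the lowest ICM share was 67.2% and the highest TE share 67.1%. After METTL7A the 1000 genes held 68.2%, 63.9% and 64.4% in ICM and 66.6%, 67.6% and 65.4% in TE. Those groups overlapped, and the mean was higher in TE, 66.5% against 65.5%. Of the genes that ranked among the 100 highest in any Control library, 137 in all, 61 were among the 100 highest in all 6. These 137 genes had a median absolute log2 fold change between TE and ICM of 0.35, the largest was 1.40, and 35 had an unadjusted edgeR p under 0.05, 8 higher and 27 lower in TE. Such a p was found in 17.5% of all genes tested. Among genes at a mean of 100 CPM or more it was found in 29.9%, 91 higher and 456 lower, so the 137 did not stand apart from genes of high level. For 80 of them the 95% interval of the difference lay within 2-fold either way.

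EdgeR called no gene between TE and ICM in Control embryos, whereas DESeq2 did. With the quasi-likelihood test of edgeR, fitted over all 12 ICM and TE libraries, 0 of 14128 genes had a Benjamini-Hochberg adjusted p under 0.05, which is 0% of those tested, and the smallest adjusted p was 0.0782. At an unadjusted p under 0.05 there were 2479 genes, 17.5% of those tested. Of these 1035 stood higher in TE (7.33%) and 1444 lower (10.2%), with median log2 fold changes of 0.87 and -0.75. DESeq2 on the same genes called 496 (3.51%), 128 higher and 368 lower in TE, and had 2695 at an unadjusted p under 0.05. All 496 also had an unadjusted p under 0.05 in edgeR. The split between higher and lower depends on the scaling. Among genes at an unadjusted p under 0.05, 58.2% were lower in TE with TMM, 47.3% with upper-quartile factors and 37.2% with total-count scaling. Total-count scaling moved the median log2 fold change of all genes from 0.016 to 0.142, whereas the count of adjusted calls was 0 with each of these scalings.

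**Figure D2:**
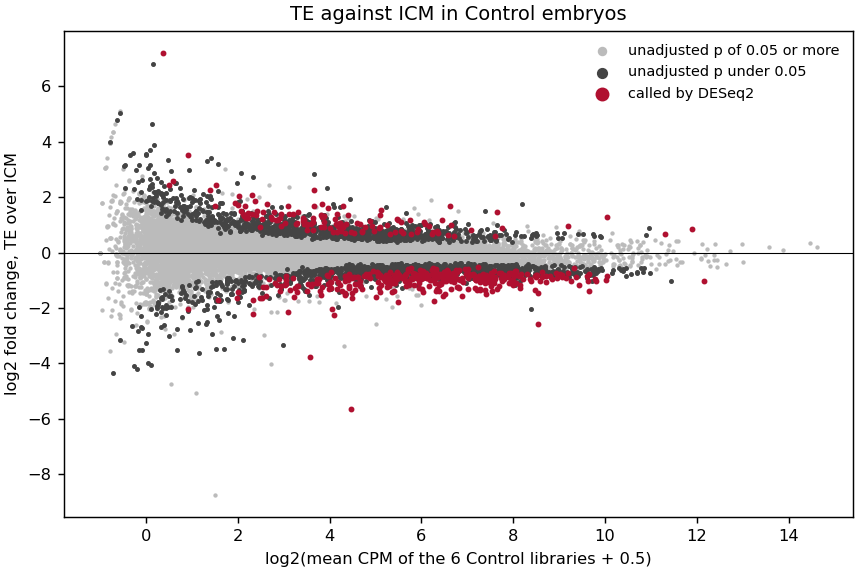
Each point is a gene tested, with its mean level in the 6 Control libraries as log2(CPM + 0.5) on the horizontal axis and the edgeR log2 fold change of TE over ICM on the vertical axis. The 2479 genes at an unadjusted p under 0.05 are dark and the 496 called by DESeq2 are red. Most red points lie below 0 at levels above 10 CPM, and fold changes fan out at low levels.

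In the fit over all groups, these counts moved with ICM replicate 1. Without it edgeR called 0 of 14651 genes (0%) and 1177 had an unadjusted p under 0.05, against 2479 with it. Of the 2479 genes, 2478 kept the sign of their log2 fold change, 5 Control libraries being shared, and 1006 also had an unadjusted p under 0.05 in that direction. In a fit of the Control libraries alone, leaving it out moved the number at an unadjusted p under 0.05 from 2403 to 1940 and the adjusted calls from 0 to 4, 1 higher and 3 lower in TE. DESeq2 over all groups, without ICM replicate 1, called 16 genes (0.109%), 3 higher and 13 lower in TE, all 16 among the 496. Of the 1444 genes lower in TE at an unadjusted p under 0.05, ICM replicate 1 was the highest of the 6 libraries in 89% (1285 genes). Of the 1035 higher ones it was the lowest of the 6 in 82.8% (857). The median log2 fold change of the lower genes moved from -0.75 to -0.51 without this library, and that of the higher genes from 0.87 to 0.66. Without TE replicate 3 the number at an unadjusted p under 0.05 was 1429. Leaving out ICM replicate 3 instead raised the edgeR count of adjusted calls to 405, 81 higher and 324 lower, of which 404 were tested in the full fit and 383 of those had ICM replicate 1 as the highest or lowest of the 6 libraries. The lower depth and the lower number of genes detected in ICM replicate 1 moved with these values, and their part in the result was not tested.

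**Figure D3:**
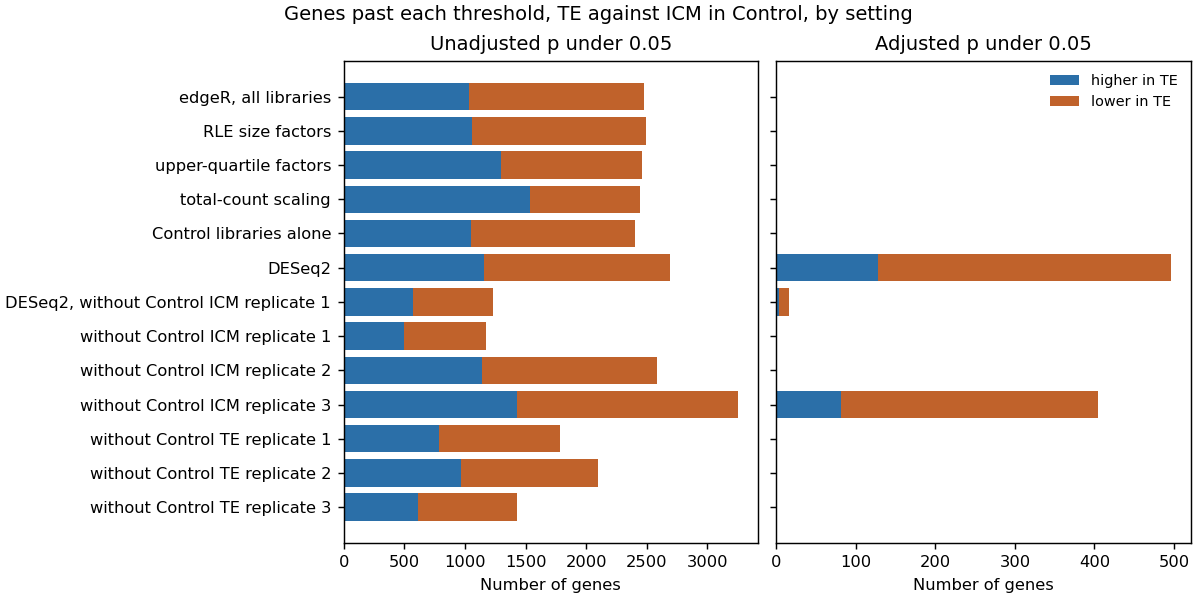
Bars give the number of genes past each threshold between TE and ICM in Control, blue for higher and orange for lower in TE, with unadjusted p on the left and adjusted p on the right. Rows are edgeR with all libraries, other scalings, the Control libraries alone, DESeq2, and the fits that leave out 1 Control library. Adjusted calls appear with DESeq2 (496, or 16 without ICM replicate 1) and in edgeR without ICM replicate 3 (405), and the rest stand at 0.

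The size of difference that the data leave room for varied with the level of the gene. Over all genes the median absolute log2 fold change was 0.38, and the median half-width of the 95% interval of the log2 fold change, not adjusted for the number of genes, was 0.68. The interval lay within 2-fold either way for 5806 genes, 41.1% of the 14121 with a standard error. In the 5786 genes at a mean of 10 to 100 CPM this share was 64.9% and in the 1829 genes at 100 CPM or more 67.5%. It was 16.7% among the 4878 genes at 1 to 10 CPM and 0% among the 1635 genes under 1 CPM, where the half-width was 1.78. For most genes under 10 CPM the data thus leave room for a difference of 2-fold or more.

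Direction also varied with level. Among genes at 100 CPM or more, 456 stood lower and 91 higher in TE at an unadjusted p under 0.05, together 29.9% of that class. Between 1 and 10 CPM, 193 stood lower and 352 higher, together 11.2%. The DESeq2 calls followed the same order, with 137 lower and 9 higher at 100 CPM or more and 30 lower and 38 higher at 1 to 10 CPM. With total-count scaling the lower genes still outnumbered the higher ones at 100 CPM or more, 303 against 135, and the higher ones those lower at 1 to 10 CPM, 478 against 132. With upper-quartile factors these counts were 383 against 115 and 419 against 159. Between 10 and 100 CPM the direction flipped with the scaling, from 752 lower and 516 higher with TMM to 588 and 674 with upper-quartile factors and 441 and 824 with total-count scaling. The counts by level all include ICM replicate 1 and were not made without it, so its part in this pattern was not tested.

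Differences of 2-fold or more with no overlap between the groups were counted among genes at 10 CPM or more in the higher group, 7947 of those tested. TE stood higher in 128 of these genes, with a median log2 fold change of 1.18 and a largest of 2.84, and lower in 161, with a median of -1.20 and an extreme of -5.65. Over all genes tested, every TE library lay above every ICM library in 1799 genes (12.7%) and below in 1797 (12.7%), together 25.5%. With a fitted fold of 2 or more as well, 527 of all genes tested stood higher and 323 lower. The balance of direction thus turned with the cut at 10 CPM. Without ICM replicate 1, 34 of the 128 and 39 of the 161 genes at 10 CPM or more still had a fitted fold of 2 or more in that direction. The median log2 fold changes of all 128 and all 161 were then 0.88 and -0.82.

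Transcripts with counts in all libraries of 1 lineage and none in the other were rare and low. Of the 27607 identifiers, 167 were of this kind for TE, with a median of 7 counts over the 3 TE libraries, and 31 for ICM, with a median of 6 counts. Asking for a count in ICM replicates 2 and 3 alone, and so in fewer libraries, gave 100 genes for ICM. The most abundant TE gene of this kind had 60 counts over the group and was at least 14.7-fold higher in TE, taking 3 counts over the ICM group as the floor. The most abundant ICM gene had 112 counts and was at least 50.7-fold higher in ICM, taking 3 counts over the TE group. These bounds do not cover the spread between libraries, and the 2 genes are the extremes of their lists. The TE libraries together were deeper, with 36868776 counts against 29411334, and the part of this depth in the larger TE number was not tested.

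Because edgeR called no gene, the identifiers shown are those of lowest p in each direction among genes at 10 CPM or more whose groups did not overlap, and they were chosen after their values were seen. ENSBTAG00000052892 stood at 545.9, 637.3 and 667.9 CPM in the ICM libraries and 1774.1, 1209.5 and 1494.7 CPM in the TE libraries. All TE libraries were above all ICM libraries, at means of 1492.8 ± 282.3 and 617.0 ± 63.5 CPM (SD, n = 3 each). The log2 fold change was 1.27 (SE 0.234, 95% interval 0.78 to 1.77), with an edgeR adjusted p = 0.116. Without ICM replicate 1 the log2 fold change was 1.19, so that library contributed little to its size.

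ENSBTAG00000022489 stood at 43.4, 53.2 and 49.7 CPM in ICM and 89.8, 97.1 and 97.4 CPM in TE. The replicates of each lineage lay close together and the groups were far apart relative to their SDs, 48.8 ± 4.94 against 94.8 ± 4.31 CPM (n = 3 each). Its log2 fold change was 0.96 (SE 0.181, 95% interval 0.57 to 1.34), with an edgeR adjusted p = 0.116, and 0.88 without ICM replicate 1.

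On the ICM side, ENSBTAG00000019581 had the lowest p of all genes. It stood at 40.6, 30.6 and 32.7 CPM in ICM and 15.1, 15.1 and 14.6 CPM in TE. The TE libraries were nearly equal and every ICM library was above them, at 34.6 ± 5.25 against 14.9 ± 0.295 CPM (SD, n = 3 each). The log2 fold change was -1.21 (SE 0.191, 95% interval -1.62 to -0.81), with an edgeR adjusted p = 0.0782, and -1.09 without ICM replicate 1. ENSBTAG00000025822 stood at 17.2, 13.7 and 9.41 CPM in ICM and 4.61, 4.90 and 5.36 CPM in TE. Its ICM libraries were spread, 13.5 ± 3.93 CPM, and its TE libraries were not, 4.96 ± 0.376 CPM (SD, n = 3 each). The log2 fold change was -1.43 (SE 0.253, 95% interval -1.97 to -0.90), with an edgeR adjusted p = 0.116, and -1.22 without ICM replicate 1. All 4 genes passed the test in DESeq2, with adjusted p = 9e-05 for ENSBTAG00000052892, 0.000435 for ENSBTAG00000022489, 2.23e-05 for ENSBTAG00000019581 and 0.00026 for ENSBTAG00000025822. In edgeR they passed without the low-count filter, at adjusted p from 0.000906 to 0.0135, and without ICM replicate 3, at adjusted p from 0.0286 to 0.0344. Without ICM replicate 1 the edgeR adjusted p was 0.522 for ENSBTAG00000052892 and ENSBTAG00000022489, 0.358 for ENSBTAG00000019581 and 0.445 for ENSBTAG00000025822. Over the 23 other settings tried, adjusted p ran from 9e-05 to 0.804 for ENSBTAG00000052892, from 0.000435 to 0.917 for ENSBTAG00000022489, from 2.23e-05 to 0.803 for ENSBTAG00000019581 and from 0.00026 to 0.803 for ENSBTAG00000025822.

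**Figure D4:**
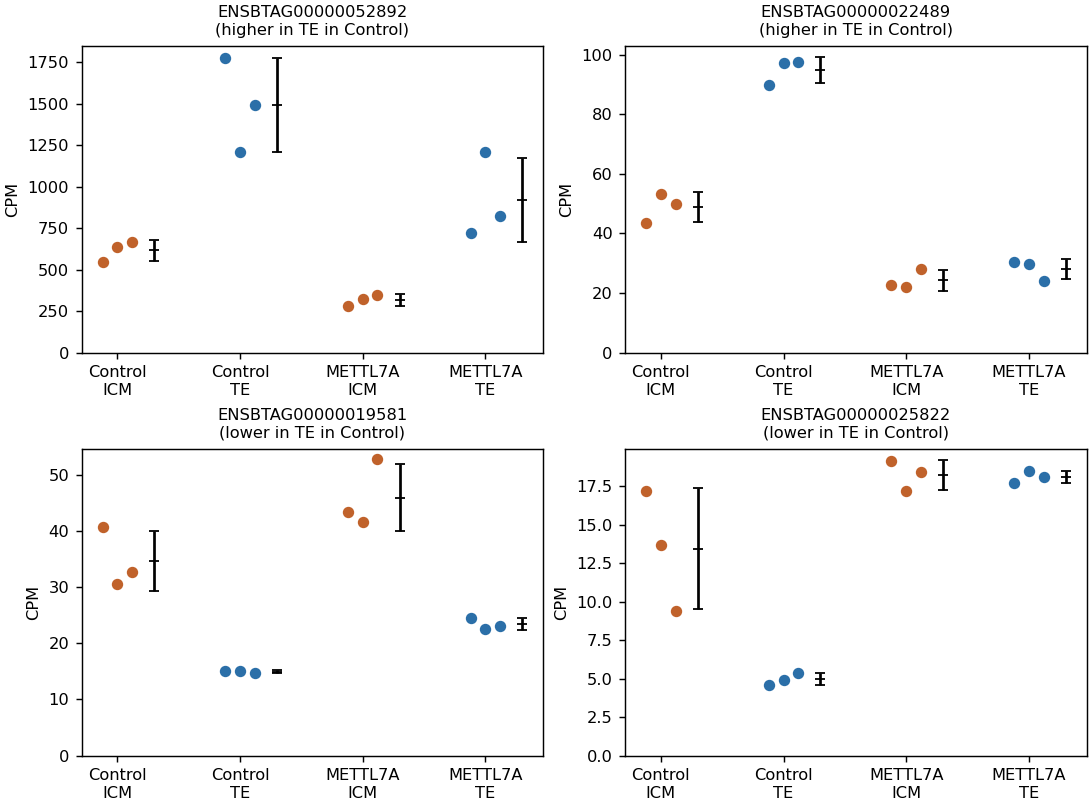
CPM of the 4 identifiers in each of the 12 ICM (orange) and TE (blue) libraries, in replicate order within a group, with the mean and SD (n = 3) in black beside the points. In METTL7A-injected embryos ENSBTAG00000052892 and ENSBTAG00000019581 part the lineages as in Control, ENSBTAG00000022489 differs little (24.2 against 28 CPM) and ENSBTAG00000025822 is level (18.2 against 18.1 CPM).

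The same 4 identifiers were followed in the METTL7A-injected blastocysts, whose libraries had entered their choice through the shared filter, scaling and spread alone. For ENSBTAG00000052892 they stood at 279.5, 325.1 and 348.2 CPM in ICM and 722.9, 1207.4 and 825.6 CPM in TE. The groups did not overlap, and TE was higher by a log2 fold change of 1.53 (SE 0.235, edgeR adjusted p = 0.0244). For ENSBTAG00000019581 they stood at 43.4, 41.5 and 52.7 CPM in ICM and 24.5, 22.5 and 23.1 CPM in TE. These did not overlap either, at a log2 fold change of -0.97 (SE 0.188, edgeR adjusted p = 0.0569), which missed the threshold. ENSBTAG00000022489 and ENSBTAG00000025822 had log2 fold changes of 0.21 and -0.01 there (edgeR adjusted p = 0.654 and 0.987). The difference between the treatments was itself tested and did not pass for any of the 4, with adjusted p = 0.857 for ENSBTAG00000052892, 0.839 for ENSBTAG00000019581, 0.517 for ENSBTAG00000022489 and 0.405 for ENSBTAG00000025822.

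Over all genes, the lineage difference of Control embryos had the same sign after METTL7A in 8690 of 14128 genes (61.5%). The comparisons share no library, but they share the fit and the scaling. Across genes, Pearson's r of the log2 fold changes was 0.264 and Spearman's rho 0.288, given as a description, and r was 0.144 when ICM replicate 1 was left out of Control. Agreement in sign was higher among genes lower in TE than among those higher in TE. Of the 368 genes that DESeq2 called lower in TE in Control, 332 (90.2%) were lower after METTL7A as well, with a median log2 fold change of -0.43 against -0.94 in Control. Of the 128 called higher, 91 (71.1%) were higher, with a median of 0.22 against 1.12. These genes were chosen by their Control values, which favours larger changes in Control. The smaller medians after METTL7A are thus no measure of a treatment effect. Among the 161 genes that stood lower in TE by 2-fold or more without overlap, 150 had the same sign (93.2%), and among the 128 that stood higher 92 (71.9%). Of the 100 genes with the lowest edgeR p without ICM replicate 1, 66 of 73 lower and 20 of 27 higher ones had the same sign after METTL7A. The sets differed in level, with a median CPM in the higher group of 95 for the DESeq2 lower calls and 21.6 for the higher ones. Whether the lower and the higher genes differ in agreement of sign, at like levels or at all, was not tested.

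**Figure D5:**
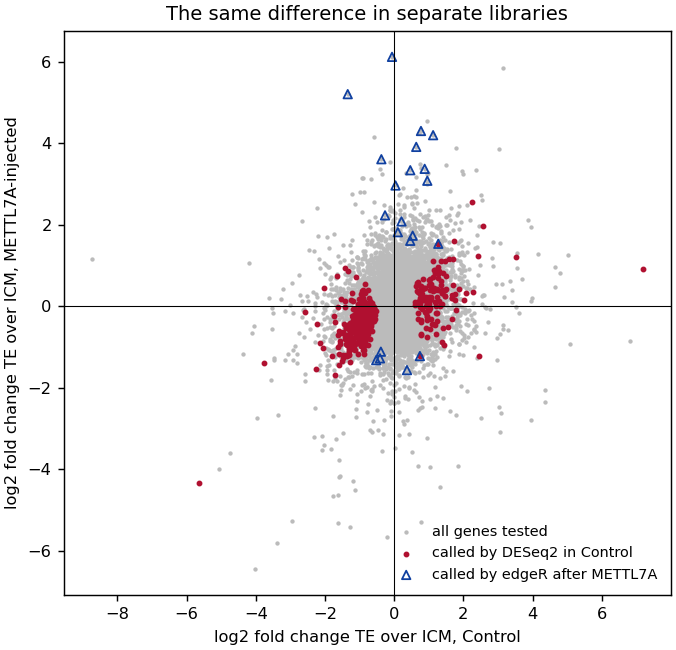
Each point is a gene tested, with the log2 fold change of TE over ICM in Control on the horizontal axis and in METTL7A-injected embryos on the vertical axis. Genes called by DESeq2 in Control are red and the 21 called by edgeR after METTL7A are open blue triangles. Red points left of 0 lie mostly below the horizontal line, and the triangles of highest value stand near 0 in Control.

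In METTL7A-injected embryos edgeR called 21 genes between TE and ICM (0.149%), 16 higher and 5 lower in TE, and DESeq2 called 270. In Control the 16 had a median log2 fold change of 0.46, from -1.34 to 1.27, against 3.21 after METTL7A, and 12 had the same sign. The 5 lower ones had a median of -0.39, from -0.52 to 0.74, against -1.28, and 3 had the same sign. All 21 were chosen by their METTL7A values, which favours larger changes there. The smaller Control medians are thus no measure of a treatment effect. The difference between the treatments passed the edgeR test for 0 of 14128 genes (0%), with 1170 at an unadjusted p under 0.05, a smallest adjusted p of 0.0922 and 33 calls by DESeq2, or 17 by edgeR without the low-count filter. Its 95% interval had a median half-width of 0.96 in log2, so for the median gene a gap of nearly 2-fold between the treatments lies within the error. It had 2 calls without Control ICM replicate 3, and 1 each without Control ICM replicate 1, METTL7A ICM replicate 2, METTL7A ICM replicate 3 and METTL7A TE replicate 2. The 21 calls became 73 without Control ICM replicate 1, 12 without METTL7A TE replicate 3, 5 without Control TE replicate 1 or 2, 3 without METTL7A TE replicate 1, and 1 without METTL7A ICM replicate 1, METTL7A ICM replicate 3 or METTL7A TE replicate 2.

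The lineage difference averaged over both treatments, a contrast added after the data were seen, was called in 382 genes (2.7%). Of these 109 were higher and 273 lower in TE, with median absolute log2 fold changes of 1.10 and 0.79. In Control the lower genes had a median log2 fold change of -0.88 and the higher ones of 0.88, and -0.65 and 0.68 without ICM replicate 1. The Control libraries helped choose these genes, so their Control medians follow in part from the choice and are no separate support. With TMM scaling, every one of the 6 TE libraries lay above every one of the 6 ICM libraries in 64 of the 14128 genes tested. They all lay below in 194. The count of calls was not stable to single libraries. It was 3 without Control TE replicate 1, Control TE replicate 3 or METTL7A TE replicate 2, 96 without Control ICM replicate 1 and 71 without Control TE replicate 2. It was 54 without METTL7A TE replicate 3, 62 without METTL7A ICM replicate 3, 135 without METTL7A TE replicate 1, 146 without METTL7A ICM replicate 1 and 881 without Control ICM replicate 3.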

How the data were processed

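The table deposited by the authors holds unnormalized integer counts of reads for 27607 Ensembl identifiers, 1 column per library. Per the submitters' processing notes, Trim Galore 0.6.10, FastQC, STAR 2.7.11b, Subread 2.0.6 and DESeq2 1.44.0 were used. The genome build is not given in the sources used here. Per the labels' protocols, cells went directly into SMART-Seq v4 cDNA synthesis and Nextera XT libraries, which mark no strand, so overlapping and antisense genes cannot be told apart. Each column was matched to a sample by name, and 0 columns belonged to no sample. Replicates are not stated to be separate embryo pools, so the p-values cover only differences among these libraries, which may be technical. Pairs of Control replicates differed by more than counting noise (chi-square per degree of freedom 14.5 to 61.2).

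The tests ran in edgeR 4.0.16, with DESeq2 1.42.0 as an alternative, under R 4.3.3. EdgeR was fitted to the 12 ICM and TE libraries with 1 coefficient per group, TMM factors, filterByExpr (minimum count 10, minimum total 15) and the robust quasi-likelihood test, 2-sided, with Benjamini-Hochberg adjustment over the 14128 genes tested. DESeq2 leaves some adjusted p-values as NA (3851 in Control), and these stay uncalled. A standard error is the log2 fold change divided by the root of F. Log2 CPM used a prior count of 3. Intervals and floors cover counting error only where they come from counts of 1 library or a group. The code was tested on simulated data. The rule for named genes took, where names are not matched, the 2 called identifiers of largest absolute log2 fold change in each direction, and 0 qualified. Members and settings were chosen with earlier results of these data known. The 2-cell and 8-cell table was not used here.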

Additional observations from a re-analysis of the deposited data

How the results depend on the processing

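The count of 0 genes called between TE and ICM in Control was also 0 with RLE size factors, upper-quartile factors, total-count scaling, a minimum count of 50, the Control libraries alone and a fold threshold of 1.5. It was 496 with DESeq2, 248 without the low-count filter (243 of them in the filtered set), and 0 to 405 when each of the 12 libraries was left out. Settings added after the data were seen gave 16 with DESeq2 and 4 with the Control libraries alone, both without Control ICM replicate 1. After METTL7A the 21 calls became 270 with DESeq2 (543 without Control ICM replicate 1), 138 without the filter, 1 with the fold threshold and 1 to 73 over single libraries. The difference between treatments had 33 calls with DESeq2 (21 without Control ICM replicate 1), 17 without the filter and 0 to 2 over single libraries. The averaged contrast had 1112 with DESeq2 (575 without Control ICM replicate 1), 754 without the filter, 0 with the fold threshold, 181 with total-count scaling and 3 to 881 over single libraries. The TE excess in detected genes kept its direction, was 1196.3 with all counts and 493 with a minimum of 5 counts, and ran from 458.3 to 1023.3 over single libraries. The TE minus ICM share of the 100 highest genes ran from 0.667 to 2.97 percentage points, and with 1000 genes it reversed to -1.20. The 4 identifiers kept their direction throughout. The cause of these shifts was not tested. The median half-width of the 95% interval of the Control log2 fold change was 0.99 at 1 to 10 CPM and 1.78 under 1 CPM.

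ICM and TE replicate numbers did not meet the rule for pairing, a correlation over 0.1 in every pair. The deviations of same-numbered Control libraries from their group means correlated at -0.000559, 0.0398 and 0.168, and ICM replicate 1 correlated best with TE replicate 2 (0.0879). After METTL7A the same-numbered pairs stood at 0.0983, 0.0973 and 0.0696, and each library correlated best with its own number there, a hint from the data and not the design. With the number as a replicate block the calls were 0 in Control, 53 after METTL7A, 0 for the difference and 821 for the averaged contrast.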
